A study of Mus musculus with 18 samples.

Results

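The genotype effect of repro9 on the juvenile mouse testis was followed from 14 to 17 days postpartum (dpp), and the quantity described is its change with age. All 18 of the 18 arrays of the series entered. On log2 signal, the mutant minus wild-type difference at 14 dpp was subtracted from that at 17 dpp. This quantity, the interaction, is negative where the mutant was lower relative to wild type at 17 than at 14 dpp. It was fitted for 34764 probe sets without and with a term for array set, explained below, and the brightest tested probe set of each gene stood for it, which gave 15307 genes.

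Whole testes of repro9 homozygotes, whose mutation lies in Mybl1, were compared with wild-type testes on an Affymetrix mouse expression array. The groups were repro9/repro9 at 14 dpp (5 arrays), wild type at 14 dpp (3 arrays), repro9/repro9 at 17 dpp (5 arrays) and wild type at 17 dpp (5 arrays), with no other allele or treatment named. The design text ties 14 dpp to early or mid pachytene spermatocytes and 17 dpp to late pachytene and diplotene ones. The sources do not say which arrays came from separate animals, so p-values measure only the spread between these arrays, which may be technical.

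Mybl1 encodes A-MYB, a DNA-binding transcription factor that male germ cells use when they enter pachytene, the long stage of meiotic prophase in which paired homologues recombine. During the first wave of spermatogenesis the germ cells of a juvenile testis advance in near synchrony, so genes of later stages appear in wild type with age. In whole testis a lower signal can come from fewer cells of a type or from less RNA per cell, and these cannot be told apart here.

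The arrays fell into 3 sets by the ratio of 3' to 5' β-actin control signal, which rises as labelled RNA is cut short before its 5' end. Set 1 (7 arrays, ratio 2.31 to 2.92) held both ages and genotypes, with 1 wild-type array of 17 dpp. Set 2 (4 arrays, 1.45 to 1.495) held only arrays of 14 dpp, and set 3 (7 arrays, 102.6 to 125.1) only arrays of 17 dpp. An interaction can be formed within set 1 and, from other arrays, as the difference in set 3 minus the difference in set 2. Over all genes the median interaction was 0.22 without and 0.18 with the set term, and every value below should be read against it.

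Among called genes, late divergence ran almost wholly in 1 direction. At an unadjusted p under 0.05 in limma without the set term, 736 genes had a negative and 437 a positive interaction. Without the set term 55 genes passed for the interaction (0.359% of the genes tested), all of them lower in mutants at 17 dpp. With the set term 290 genes passed (1.89%), of which 278 were lower (1.82%) and 12 higher (0.0784%), and these included all 55. In all 290 the difference between genotypes was larger at 17 than at 14 dpp, and no called gene had a difference that narrowed. Of these calls, each kept its sign both within set 1 and in sets 2 and 3. The same arrays chose the genes, so the kept sign is no independent evidence.

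In probe sets the counts were 71 without the set term, 71 lower and 0 higher in limma, with 1951 under an unadjusted p of 0.05, and 416 with it, 394 lower and 22 higher (4363 at an unadjusted p under 0.05). The count of 71 rested on the arrays of 14 dpp in particular. Without wild-type replicate 1 of 14 dpp limma called 0 (1198 at an unadjusted p under 0.05), without wild-type replicate 3 it called 12 and without wild-type replicate 2 it called 31. Leaving out mutant replicates 1 to 5 of 14 dpp gave 40, 33, 33, 31 and 29 in that order. At 17 dpp it was 40 without mutant replicate 2, and 26, 32, 133 and 34 without wild-type replicates 2, 3, 4 and 5. With the set term the 416 became 79 without wild-type replicate 3 and 144 without replicate 1 of 14 dpp, 211 and 217 without mutant replicates 1 and 2 of 14 dpp, and 925 without wild-type replicate 4 of 17 dpp. With the set term 33 to 55 of the 55 genes still passed when 1 array was left out, and without it 0 to 54 did. Within set 1 alone, and from sets 2 and 3 alone, limma called 0 probe sets (1843 and 2179 at an unadjusted p under 0.05), and with array weights it called 413, 333 lower and 80 higher.

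**Figure D1:**
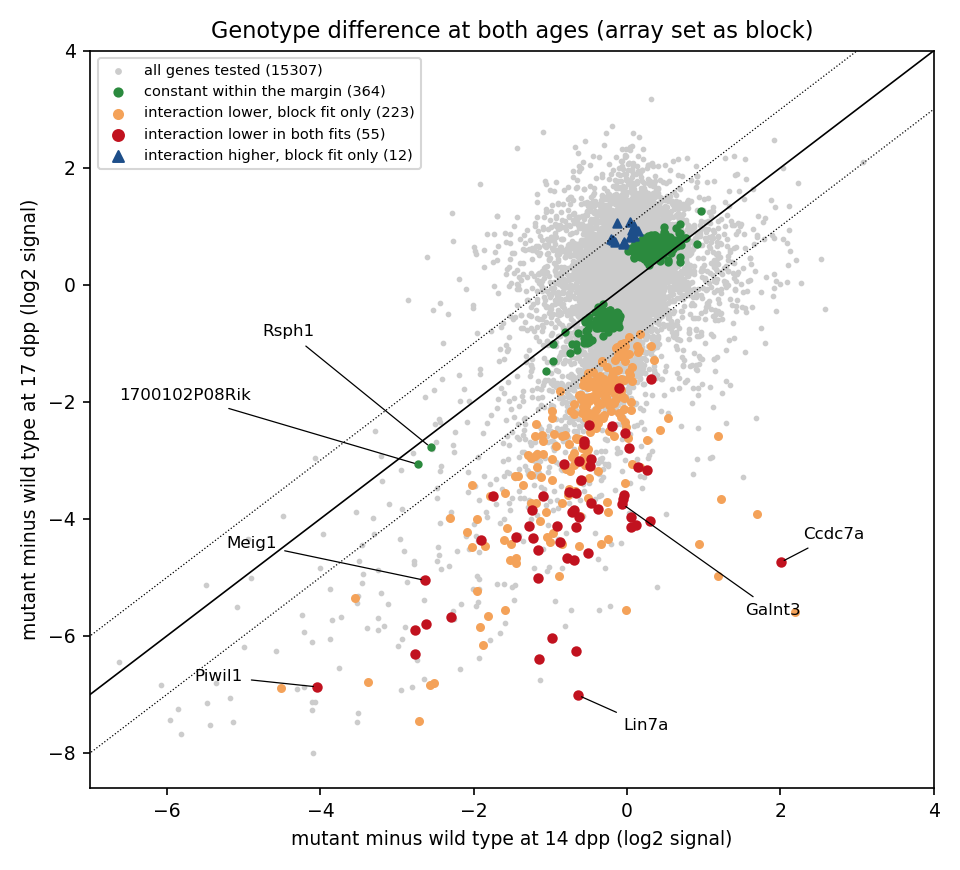
Mutant minus wild-type difference of log2 signal at 14 dpp (horizontal axis) and 17 dpp (vertical axis) for each of 15307 genes, from limma with the array set term. Points on the solid line have the same difference at both ages, and the dotted lines mark a change of 1. The 55 genes called in both fits (red) lie below the lower dotted line, and the 12 called higher (blue triangles) lie near 0 at 14 dpp.

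Mybl1 itself did not pass for the interaction. Its brighter probe set gave 512, 775 and 651 in wild type at 14 dpp and 249, 233, 85.1, 68.1 and 95.6 in mutants. At 17 dpp it gave 1076, 1475, 2309, 1419 and 3959 in wild type and 293, 278, 123, 83.4 and 154 in mutants. Every mutant array lay below every wild-type array of its age. The interaction was −1.12 ± 0.69 (SE; adjusted p = 0.963) and −1.46 ± 0.60 with the set term (adjusted p = 0.32). It was 0.42 without the set 3 arrays, and the other probe set gave 1.01. The position of these probe sets relative to the mutation was not analysed here.

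Galnt3 showed late divergence from no difference. It encodes an enzyme that starts mucin-type O-glycosylation. At 14 dpp the wild-type arrays gave signals of 168, 196 and 195 and the mutant arrays 202, 183, 164, 162 and 168, so the genotypes overlapped. At 17 dpp wild type gave 1913, 2598, 3165, 1997 and 8848 and mutants 113, 156, 216, 389 and 222. The highest mutant array was then well below the lowest wild-type array. The geometric mean was 1.06-fold higher in wild type at 14 dpp and 15.3-fold higher at 17 dpp, an interaction of −3.85 ± 0.58 (adjusted p = 0.0114; with the set term −3.69 ± 0.48, adjusted p = 0.00174). Within set 1 it was −3.93 and in sets 2 and 3 −3.46.

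Cdc42ep3, an effector of the small GTPase CDC42, had the lowest adjusted p of the interaction in both fits and is named after its values were seen. Wild type at 14 dpp gave 1266, 1761 and 1002, and mutants gave 817, 771, 497, 560 and 546, without overlap. At 17 dpp wild type gave 8717, 8315, 8716, 7218 and 15657, and mutants 377, 600, 697, 586 and 418. Mutant arrays had about the same range at both ages, while wild type at 17 dpp stood 7.15-fold above its own earlier level. The interaction was −3.10 ± 0.39 (adjusted p = 0.00962) and −3.22 ± 0.32 with the set term (adjusted p = 2.47e-04).

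Lyar, a nucleolar zinc-finger protein, was among the brightest of the 55 in both genotypes. Its wild-type arrays gave 2613, 3302 and 2576 at 14 dpp, against 1946, 1880, 1729, 1709 and 2089 in mutants. The 17 dpp values were 14493, 19262, 18394, 11740 and 35232 in wild type and 2583, 2374, 2766, 3043 and 3135 in mutants. Mutants at 17 dpp thus had about the level of wild type at 14 dpp. The interaction was −2.14 ± 0.35 (adjusted p = 0.0151; with the set term −2.11, adjusted p = 0.00309).

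Piwil1, which encodes the PIWI partner of pachytene piRNAs (MIWI), differed at 14 dpp already and diverged further. Wild type gave 911, 1427 and 945 at 14 dpp and mutants 72.2, 76.5, 71.2, 50.7 and 40.04. At 17 dpp wild type gave 5824, 7952, 7869, 5628 and 10240, and mutants 62.8, 94.4, 25.04, 78.2 and 88.0. Mutant arrays were low at both ages, near the 40th percentile of their own array (52.2 to 93.4), so the size of the folds may depend on the background. Wild type stood 17.8-fold above mutants at 14 dpp and 116-fold at 17 dpp, an interaction of −2.70 ± 0.52 (adjusted p = 0.0352; with the set term −2.84 ± 0.49, adjusted p = 0.00753).

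Meig1, needed to build the sperm flagellum, had the same course at a mutant level clear of background. Its wild-type signals were 2166, 3774 and 2521 at 14 dpp and 10998, 20923, 18032, 12129 and 30940 at 17 dpp. In mutants they were 444, 378, 456, 597 and 398 at 14 dpp and 476, 607, 490, 494 and 468 at 17 dpp. The 10 mutant arrays of both ages lay between 378 and 607. The ratio of wild type to mutants went from 6.11-fold to 34.3-fold (interaction −2.49 ± 0.40, adjusted p = 0.0129; with the set term −2.42, adjusted p = 0.00367).

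Phf7, a PHD-finger protein of male germ cells, gave 3745, 6045 and 3794 in wild type and 1430, 1401, 1300, 1051 and 1048 in mutants at 14 dpp. At 17 dpp it gave 15451, 30142, 25247, 29836 and 37630 in wild type and 2221, 2333, 2050, 2160 and 1774 in mutants. All mutant arrays of 17 dpp were above all of 14 dpp, yet below every wild-type array of either age. Its interaction, −1.82 ± 0.34 (adjusted p = 0.0323; with the set term −1.86, adjusted p = 0.00398), was smaller within set 1 (−1.01) than in sets 2 and 3 (−2.18), a difference that was not tested.

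**Figure D2:**
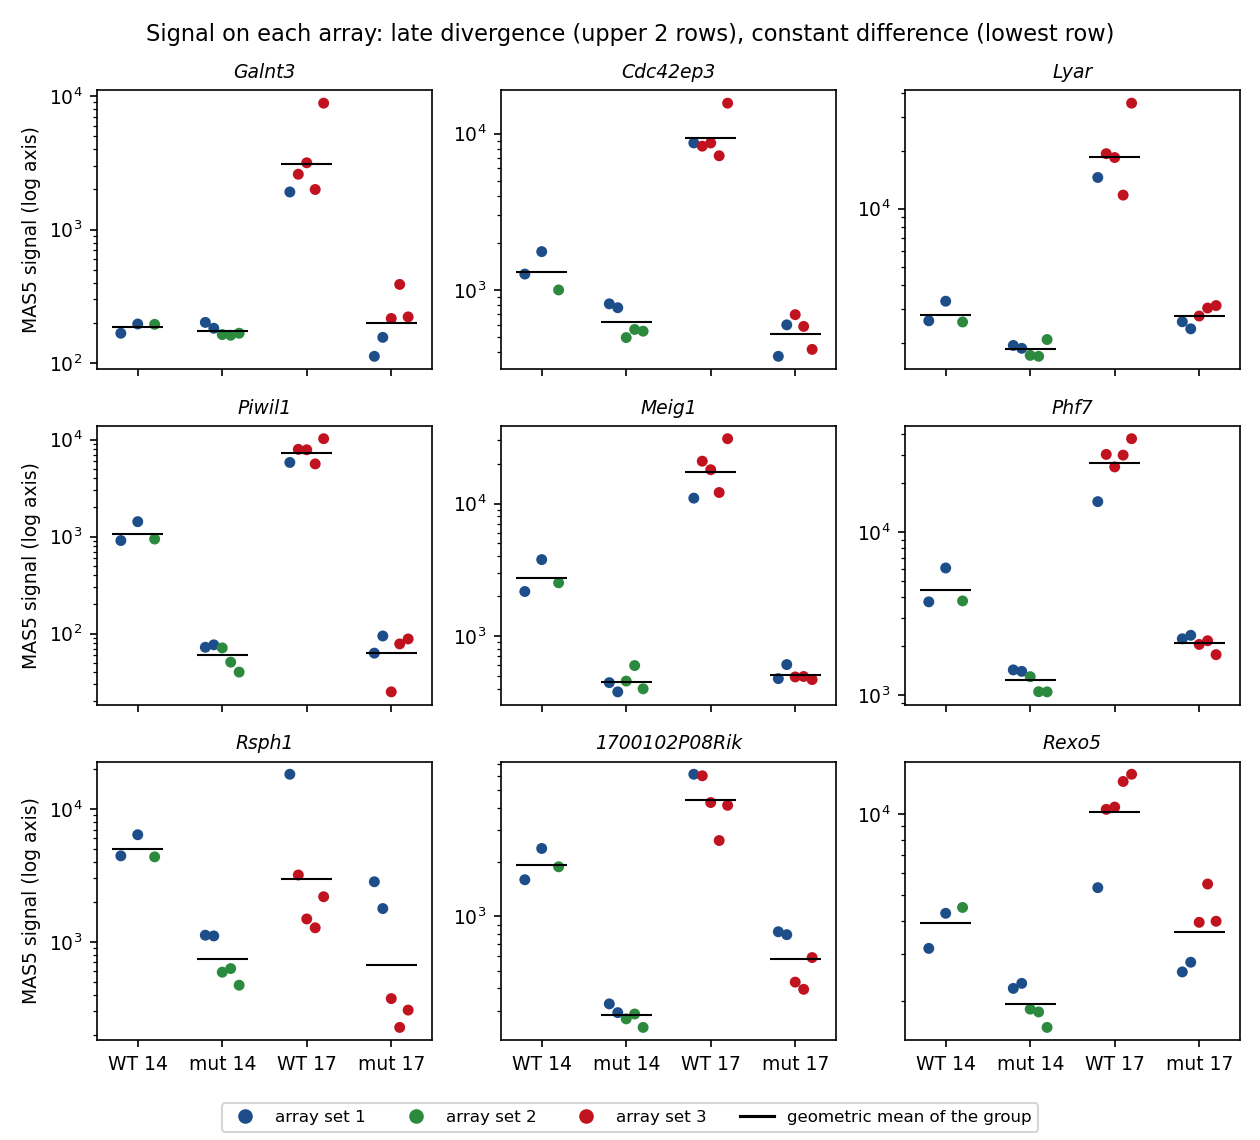
MAS5 signal on each array (log axis) for 6 genes that diverged late and, in the lowest row, 3 genes of constant difference, by genotype and age (WT, wild type; mut, repro9/repro9). Points are arrays coloured by array set and bars are geometric means. Galnt3 overlaps between genotypes at 14 dpp and separates at 17 dpp, whereas 1700102P08Rik is separated by a like distance at both ages.

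Promoters of 4 of these genes are shown because A-MYB belongs to a family that binds a short core motif, searched here as CAACNG and TAACNG on both strands. The letters come from RefSeq (GRCm38.p6), run 5' to 3' on the gene's strand from 250 bases before to 50 after its start, and have each match in capitals. Piwil1 and Phf7 hold 3 matches each, Shcbp1l, described below, holds 1, and Galnt3 holds 0.
Piwil1, chr5:128735996-128736295, plus strand: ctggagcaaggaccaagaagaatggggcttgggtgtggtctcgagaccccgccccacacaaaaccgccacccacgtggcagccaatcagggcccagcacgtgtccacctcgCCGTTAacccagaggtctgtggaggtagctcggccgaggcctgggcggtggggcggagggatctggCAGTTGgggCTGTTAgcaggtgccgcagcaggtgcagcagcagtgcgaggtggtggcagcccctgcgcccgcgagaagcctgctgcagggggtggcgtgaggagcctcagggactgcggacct
Phf7, chr14:31251266-31251565, minus strand: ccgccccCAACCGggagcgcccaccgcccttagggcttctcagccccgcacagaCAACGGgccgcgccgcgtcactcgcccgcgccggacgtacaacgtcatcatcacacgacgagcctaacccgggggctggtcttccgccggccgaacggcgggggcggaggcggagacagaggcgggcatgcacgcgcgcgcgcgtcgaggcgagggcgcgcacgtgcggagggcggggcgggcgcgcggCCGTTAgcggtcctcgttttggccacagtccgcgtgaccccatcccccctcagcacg
Shcbp1l, chr1:153424959-153425258, plus strand: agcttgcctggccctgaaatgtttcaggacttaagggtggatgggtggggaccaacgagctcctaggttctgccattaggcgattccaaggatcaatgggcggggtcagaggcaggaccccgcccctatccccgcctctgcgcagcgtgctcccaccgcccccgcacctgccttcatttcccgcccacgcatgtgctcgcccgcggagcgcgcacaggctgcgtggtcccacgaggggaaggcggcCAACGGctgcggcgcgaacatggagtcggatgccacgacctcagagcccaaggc
Galnt3, chr2:66124744-66125043, minus strand: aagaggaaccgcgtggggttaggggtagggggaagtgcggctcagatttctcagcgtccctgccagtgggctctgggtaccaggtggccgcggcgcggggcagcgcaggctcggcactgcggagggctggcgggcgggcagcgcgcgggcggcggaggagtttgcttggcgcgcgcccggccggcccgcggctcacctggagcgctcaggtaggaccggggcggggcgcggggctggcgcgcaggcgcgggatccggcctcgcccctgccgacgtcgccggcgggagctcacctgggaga
Of the 55 genes, 43 matched the RefSeq table, with 56 promoters, and 37 of these (66.1%) held the motif. The share was 59.8% of 92 promoters for genes of constant lower level (defined below) and 49.7% of all 32851 promoters. The cAMP response element TGACGTCA was in 0 of the 56 promoters and in 1.79% of all. A match is a run of letters and does not show binding, and these shares were not tested.

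The 15 genes with the lowest interactions were at low signal in every group but wild type at 17 dpp, with geometric means of at most 228 elsewhere. Lin7a, a PDZ-domain scaffold protein, had an interaction of −5.98 ± 1.11. Its signal was 76.9, 102 and 13.3 in wild type and 10.2 to 38.5 in mutants at 14 dpp, then 1356, 1187, 1519, 1165 and 3977 in wild type and 4.03 to 46.7 in mutants at 17 dpp. Ccdc7a, a coiled-coil protein, had the lowest value (−6.32 ± 1.20) from wild-type signals of 3.22 to 11.8 at 14 dpp and 146 to 1289 at 17 dpp. All mutant arrays of Ccdc7a, Lin7a and Bex6 (interaction −4.21) lay below the 40th percentile of their array, so these sizes may depend on the background. With signal raised to that percentile, Ccdc7a (adjusted p = 0.133) and Bex6 (0.194) did not pass.

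The other 12 were Gm7444 (−5.65), Cfap299, named for cilia and flagella, and Ttc29, a tetratricopeptide repeat protein of the sperm flagellum (−4.91 each), and Nlrp14, an NLR-family protein of germ cells (−4.41). They went on with 4933401H06Rik (−4.29), Hoxb5os (−4.26), Ccdc30 (−4.06), Ttc6 (−3.89), Cetn1 and Irak3 (−3.81 each), and C2cd6, a component of the sperm calcium channel complex (−3.75), beside Galnt3. Cetn1 encodes a centrin, a calcium-binding protein of centrioles, and Irak3 a kinase-family inhibitor of Toll-like receptor signalling. All 15 had an adjusted p from 0.0114 to 0.0458 and, with the set term, from 0.00174 to 0.028. At 14 dpp their differences ran from −1.14 to 1.64.

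The following members of the 55 are named after their values were seen. The centrin Cetn4 had wild-type signals of 930 to 1374 at 14 dpp and 6496 to 21113 at 17 dpp, against 503 to 873 and 540 to 1024 in mutants (interaction −2.87 ± 0.44, adjusted p = 0.0114). Cep128 (−2.76) and Lrrcc1 (−3.16) are centrosomal proteins, Ttc30a2 (−3.04) is a relative of an intraflagellar transport subunit, and Cfap54 (−2.34) is part of the central pair apparatus. Ttll5, a tubulin glutamylase, had the smallest interaction (−1.64 ± 0.30, adjusted p = 0.0308).

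Mdh1b, a relative of malate dehydrogenase, gave 293, 482 and 264 in wild type at 14 dpp and 33.2 to 99.1 in mutants, then 2540 to 7804 and 40.6 to 146 at 17 dpp (interaction −3.21 ± 0.58, adjusted p = 0.0308). Haspin, a histone H3 kinase gene of male germ cells, did not separate the genotypes at 14 dpp (279, 301 and 295 in wild type, 236 to 477 in mutants) and did at 17 dpp (2398 to 9816 against 169 to 1244). Its interaction was −3.57 ± 0.68 (adjusted p = 0.0352). Shcbp1l, a protein of the meiotic spindle, stood 1.70-fold higher in wild type at 14 dpp and 15.5-fold at 17 dpp (−3.19 ± 0.49, adjusted p = 0.0114). Pabpc6 (−3.59) is a poly(A)-binding protein and Dis3l (−2.45) a ribonuclease of the RNA exosome. Spesp1 (−2.43), an equatorial segment protein of sperm, gave 576 to 907 against 180 to 251 at 14 dpp and 2889 to 9846 against 143 to 304 at 17 dpp.

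The genes divided by where they stood at 14 dpp. For 35 of the 55 the difference at 14 dpp lay between −1 and 1, for 19 it was below −1 and for 1 (Ccdc7a) above 1, with a median of −0.64. Mutant and wild-type arrays overlapped at 14 dpp for 31 genes and were apart for 24, where all mutant arrays of 4.49% of all genes lay below all wild-type arrays. At 17 dpp all mutant arrays lay below all wild-type arrays for each of the 55, and for 4.98% of all genes. Differences of the 55 at that age ran from −7.03 to −1.66 with a median of −3.999. The lowest wild-type array of 17 dpp was above the highest of 14 dpp for all 55. These counts use the arrays that chose the genes, and nothing is read from them beyond the description.

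The interaction equals the age change in mutants minus that in wild type, and for the 55 it came from wild type. All 55 rose with age in wild type (7.06% of all genes did), by 1.48 to 5.98 with a median of 3.37. In mutants the age change ran from −1.84 to 0.86 with a median of 0.17, and none of the 55 passed there (1.76% of all genes did, in either direction). For 52 of the 55 the mutant age change lay between −1 and 1. With the set term all 55 rose in wild type (4.82% of all genes) and none passed in mutants (0.79%), and on the arrays of set 1 alone the wild-type change ran from 1.54 to 6.00 and the mutant one from −1.61 to 0.69. The 2 age changes and the interaction share arrays.

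**Figure D3:**
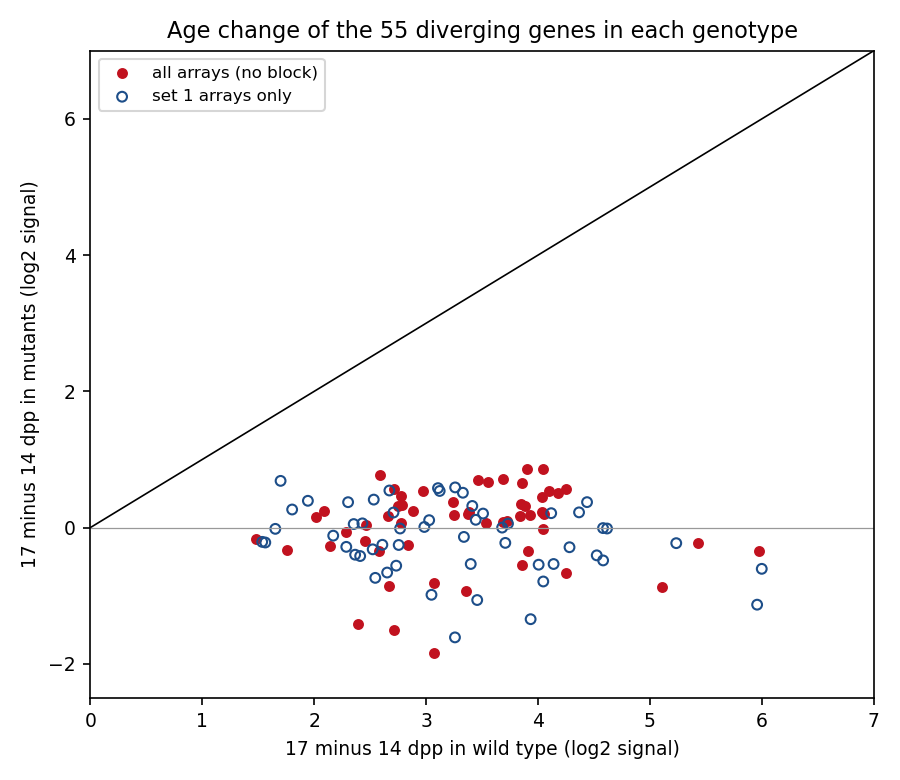
Change of log2 signal from 14 to 17 dpp in wild type (horizontal axis) and mutants (vertical axis) for the 55 genes called in both fits, from all arrays (filled) and from set 1 alone (open). On the diagonal both genotypes would change alike. All genes lie at or above 1.48 in wild type, and most lie between −1 and 1 in mutants.

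Wild-type replicate 5 of 17 dpp was the highest of its group for 54 of the 55 genes, and replicate 4 was the lowest for 41. Without replicate 5 the median interaction of the 55 was −2.99 and 29 of them passed, and without replicate 4 it was −3.38 and 54 passed, against −3.19 with all arrays. The part of these arrays in the result beyond these values was not tested. The 55 genes lay on 18 chromosomes and none on the X. As only 511 of the 15307 genes tested were X-linked, nothing is read from this absence. For 30 genes another 55 probe sets were tested, of which 50 had a negative and 5 a positive interaction, and 8 passed with the set term and 1 without. Fam13c lay just inside the threshold (adjusted p = 0.0499, interaction −1.87) and Hsbp1l1 just outside (0.0527, −3.10).

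**Figure D4:**
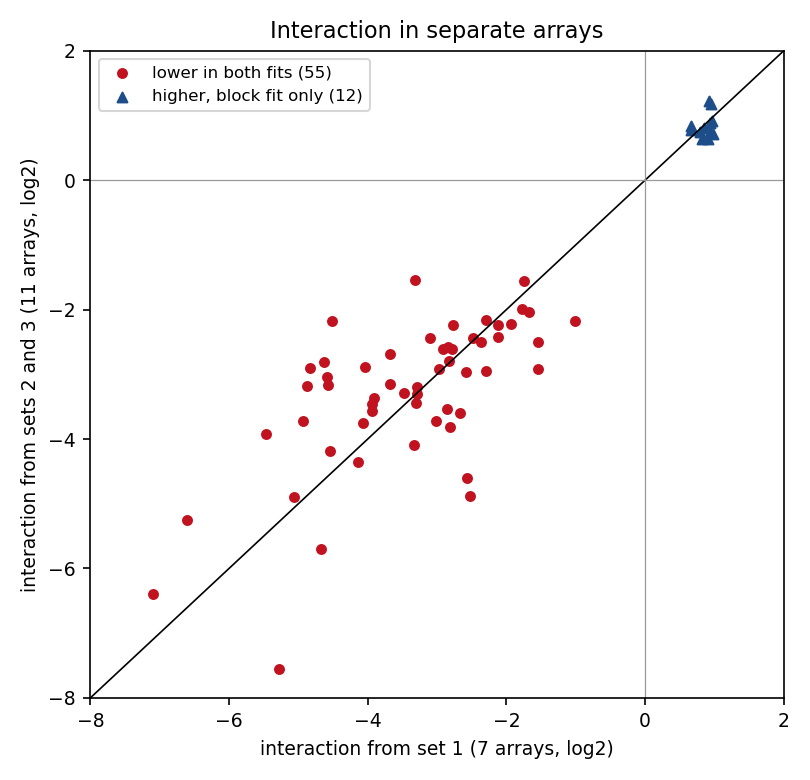
Interaction of each gene from the 7 arrays of set 1 (horizontal axis) and from the 11 arrays of sets 2 and 3 (vertical axis), on the log2 scale, for the 55 genes called lower in both fits and the 12 called higher with the set term. The line marks equal values. Every red point is below 0 and every blue triangle above 0 on both axes, and the genes were chosen on all of these arrays together.

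Gene groups written down from textbook knowledge were counted next, against 0.359% of all genes called without and 1.89% with the set term. Of 28 tested pachytene spermatocyte markers, 5 passed (Piwil1, Tcte2, Meig1, Lyar and Cetn1), all with a negative interaction, which 24 of the 28 had and 4 had not. With the set term 8 passed, all negative, adding Clgn, a chaperone of the endoplasmic reticulum (−2.14, adjusted p = 0.00846), and Ybx2 and Ybx3, RNA-binding Y-box proteins (−2.07, adjusted p = 0.007, and −1.64, adjusted p = 0.00398). With that term Ybx2 changed little with age in wild type (0.12) and fell in mutants (−1.94). Ybx3 instead rose in wild type (1.53) and changed little in mutants (−0.11). The median interaction of the list was −1.75, from −1.04 at 14 dpp to −2.85 at 17 dpp. Members of this and other lists were in part chosen with earlier results of these arrays known, so the counts are no independent evidence of direction.

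Axoneme and cilium genes had a like median. Of 37, only Meig1 passed without the set term, and 7 passed with it. The further 6 were the dynein heavy chains Dnah2 (−2.38, adjusted p = 0.00797) and Dnah8 (−3.18, adjusted p = 0.00967), the dynein assembly factor Ccdc39 (−2.05, adjusted p = 0.00987), Cfap43 (−2.598, adjusted p = 0.0184), Cfap69 (−2.35, adjusted p = 0.00554) and the tubulin glutamylase subunit Ttll1 (−1.29, adjusted p = 0.0411). The call of Ttll1 has no support from the mean of its probe sets, which gave 0.14 without the set term. Cfap69, 1 of the called members, gave 356 to 668 in wild type and 179 to 348 in mutants at 14 dpp, just apart, and 1452 to 3403 against 154 to 418 at 17 dpp, far apart. The list's median interaction was −1.71, from −1.04 to −2.46.

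Testis isoforms of energy metabolism had the lowest list median at 14 dpp. Without the set term Mdh1b passed among 21. With it 6 did, namely Mdh1b, testis cytochrome c Cyct (−1.82, adjusted p = 0.00398), the glucose transporter Slc2a3 (−3.27, adjusted p = 0.00797), the monocarboxylate transporter Slc16a7 (−3.63, adjusted p = 0.0075), and the cytochrome c oxidase subunits Cox6b2 (−1.41, adjusted p = 0.0306) and Cox7b2 (−1.19, adjusted p = 0.0369). Slc2a3 gave 2783 to 6658 in wild type and 740 to 1316 in mutants at 14 dpp, and 7162 to 23054 against 136 to 1295 at 17 dpp. The list's median went from −1.67 at 14 dpp to −2.84 at 17 dpp, with a median interaction of −1.35.

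Other germ-cell lists held fewer calls. Of 30 spermatocyte transcription regulators 0 passed without and 3 with the set term, and the median interaction was −0.83. The 3 were Rfx2, a regulator of cilium genes (−2.32, adjusted p = 0.0361), Taf7l2 (−1.49, adjusted p = 0.0343) and Ovol2 (−3.13, adjusted p = 0.0458). At 17 dpp mutant arrays gave 8.29 to 104 for Rfx2 and 7.74 to 66.9 for Ovol2, overlapping wild type (73.3 to 942 and 63.3 to 623). Their mutant medians there (21.4 and 32.5) were below the 40th percentile of each such array (52.19 to 90.05), so these sizes may depend on the background. Of 23 round spermatid and acrosome genes 0 passed without and 1 with the set term (Acrbp, −2.03, adjusted p = 0.044), with a median of −1.25. Piwil1 alone passed among 23 piRNA pathway genes in either fit (median −0.55). Of 30 synaptonemal complex and recombination genes 0 and 1 passed (Psmc3ip, a cofactor of strand exchange, −1.43 with the set term, adjusted p = 0.00797), with a median of −0.11, below that of all genes. Meiotic division and G2/M genes had 0 of 36 called in both fits (median 0.19), and preleptotene to zygotene genes 0 of 23 (median 0.10).

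Phf7 passed in both fits and Mdc1, which spreads DNA damage signalling over the sex body, with the set term (−1.15, adjusted p = 0.0324), among 23 histone and chromatin genes (median −0.24). Cetn1 passed in both and Cox7b2 with the set term among 16 autosomal retrogenes of X-linked genes (median −0.38). Of 26 spermatogonia genes Id4, an inhibitor of DNA binding, passed with the set term (−1.57, adjusted p = 0.0261), against a list median of 0.65. Its geometric mean over all arrays was 5.37-fold higher at 17 than at 14 dpp in wild type and 1.68-fold higher in mutants, so the distance to wild type widened. The interaction of Id4 was smaller within set 1 (−0.51) than in sets 2 and 3 (−2.21), a difference that was not tested. No member of the MYB family (3 tested), the p53 response (20), or the heat shock list (19) passed in either fit.

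Markers of somatic cells had positive median interactions, that of peritubular myoid genes below the median of all genes. None of these markers was called. With the set term 1.89% of all genes were called and 0.0784% called higher, so little can be read from that count. The median interaction was 0.52 for 22 Sertoli genes, 0.82 for 11 Leydig genes, 0.17 for 12 peritubular myoid genes, 0.44 for 15 macrophage genes and 0.49 for 12 endothelial genes, against 0.22 for all genes. The summed Sertoli signal was 103300 to 131900 in mutants and 110430 to 120160 in wild type at 14 dpp, and 101790 to 139660 in mutants and 67556 to 102550 in wild type at 17 dpp. The summed pachytene marker signal was 14414 to 18808 in mutants and 33066 to 45956 in wild type at 14 dpp, and 18947 to 20926 and 135870 to 269590 at 17 dpp. Wild type at 17 dpp thus had the highest pachytene sums and, apart from a small overlap with mutants of its age, the lowest Sertoli sums. No defining Sertoli member lay below the 40th percentile on all arrays of a group. The part of cell makeup in the divergence was not tested. Of 4 epididymis markers none passed (median −0.11), with summed signals of 121 to 390 over all groups.

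**Figure D5:**
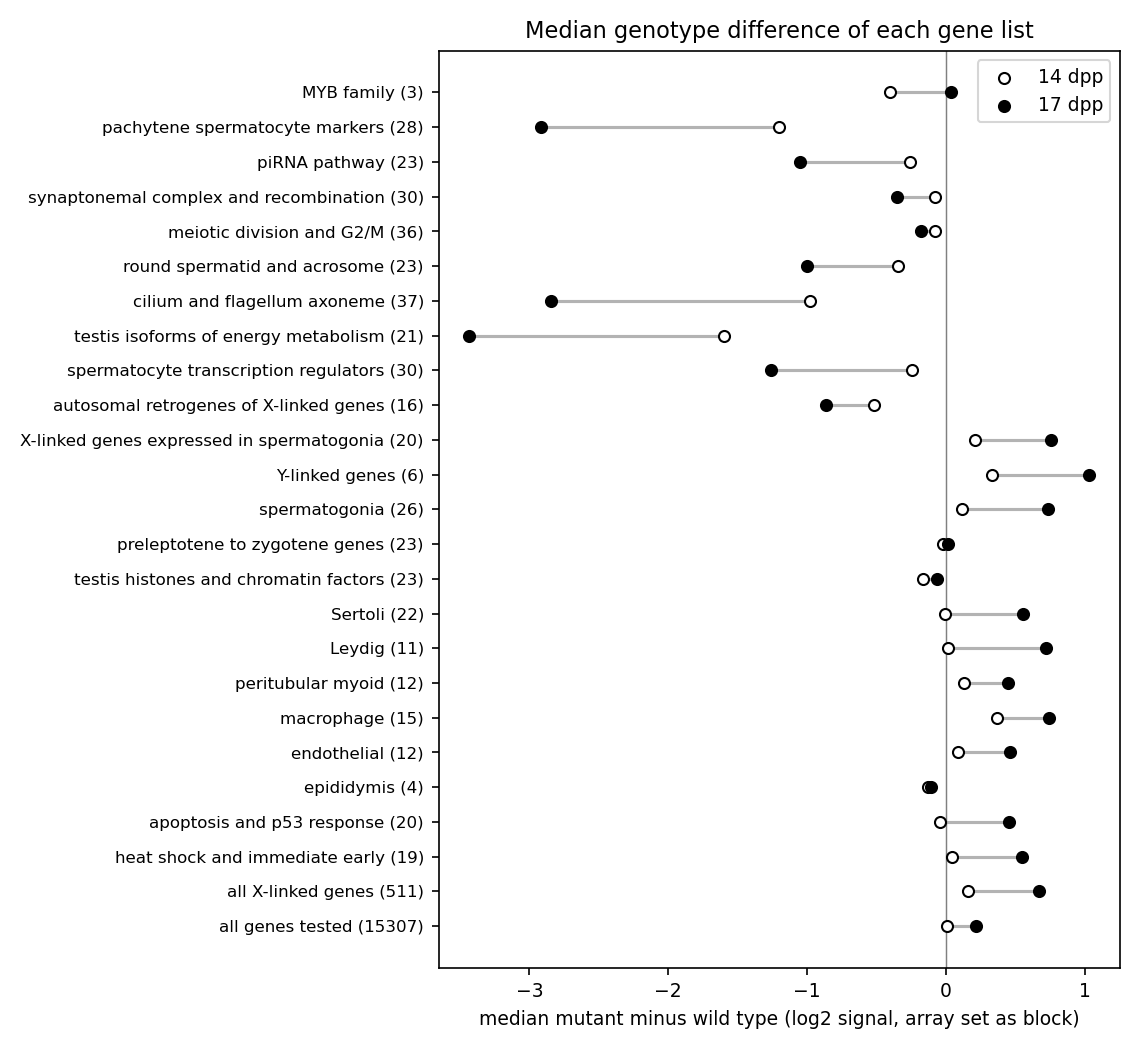
Median mutant minus wild-type difference (log2 signal, limma with the array set term) of each gene list at 14 dpp (open) and 17 dpp (filled), with the number of genes tested. Pachytene, axoneme and energy lists move left with age, most somatic, X-linked and spermatogonia lists move to the right, and the median of all genes moves little.

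Genes called for a positive interaction were fewer than those called for a negative one and mostly changed less. The 12 called with the set term were Rab31, Esr1, Dmrtc1a, Sat2, Gcsh, Galnt1, Fyn, Cytip, Dynlt3, Gnai1, Abcd3 and Tent2, with interactions from 0.73 to 1.20, and none passed without it. All 12 had, with the set term, a difference under 0.25 in size at 14 dpp. Without it Dmrtc1a (−0.32), Rab31 (−0.31) and Cytip (−0.27) were past that size. In wild type 11 of the 12 had a negative age change with the set term. Gcsh, a protein of the glycine cleavage system, gave 4270, 4403 and 3491 in wild type and 5044, 4094, 3859, 3858 and 3741 in mutants at 14 dpp. At 17 dpp it gave 2929, 3753, 2840, 2544 and 2623 in wild type and 5502, 6219, 5809, 6466 and 5409 in mutants, 2.02-fold higher and without overlap (interaction 0.92 ± 0.19 with the set term, adjusted p = 0.0184; 0.99, adjusted p = 0.139 without).

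Esr1, the estrogen receptor α gene, gave 918, 794 and 991 in wild type and 834 to 1084 in mutants at 14 dpp. At 17 dpp it gave 469, 522, 394, 378 and 387 in wild type and 1145, 911, 934, 689 and 1025 in mutants, so the mutant arrays lay around the earlier level and apart from wild type (interaction 1.04 ± 0.24 with the set term, adjusted p = 0.045; 1.08, adjusted p = 0.235 without). Rab31, a small GTPase of vesicle traffic, had the largest value with the set term (1.20 ± 0.23, adjusted p = 0.0149). Its signal depended on the array set: wild type at 17 dpp gave 3478 on the set 1 array and 685, 618, 594 and 460 on set 3, and mutants gave 5577 and 5649 on set 1 and 1610, 1481 and 1024 on set 3. Within each set the mutants of 17 dpp were higher, while over all arrays of that age the genotypes overlapped (1.82 ± 0.80, adjusted p = 0.832 without the set term).

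The median difference of 511 X-linked genes was 0.11 at 14 dpp and 0.68 at 17 dpp, and 86.3% had a positive interaction against 63.1% of all genes. Without the set term 0 passed in limma, and with it 2 did (Dmrtc1a and Dynlt3), or 0.391% of X-linked genes against 0.0784% of all genes called higher. This difference was not tested. The 5 highest X-linked interactions were Klhl4 (2.95), Tsga8 (2.69), Asb9 (2.21), Ctag2 (2.02) and Ssr4 (1.92), with adjusted p from 0.417 to 0.963. For each of these 5 the arrays of the genotypes overlapped at 17 dpp. The geometric mean of Klhl4 was 4.71-fold higher in wild type at 14 dpp and 1.645-fold higher in mutants at 17 dpp. For Tsga8 these folds were 2.555 and 2.533. Klhl4 gave only 6.96 to 27.7 in mutants at 14 dpp. Tsga8 turned to −1.25 within set 1 and −1.01 without set 3. The 20 listed X-linked genes of spermatogonia had a median interaction of 0.62 and the 6 listed Y-linked genes one of 0.62, with 0 called.

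A difference was called constant where its mean over both ages passed and the 95% interval of the interaction lay between −1 and 1, since a missed threshold does not show a constant difference. Without the set term 6 genes met this (0.0392%), and with it 364 did (2.38%), 92 lower and 272 higher in mutants. Of 670 genes (4.38%) whose mean difference passed without the set term, 610 fell in neither class, and of 1888 (12.3%) with it, 1249 did, so for most the data do not say whether the difference changed with age. The count of 6 ran from 0 to 13 when 1 array was left out: it was 10, 3, 2 and 2 without mutant replicates 1, 3, 4 and 5 and 2, 0 and 13 without wild-type replicates 1, 2 and 3 of 14 dpp, 1 without mutant replicate 2 and 10, 3 and 2 without wild-type replicates 1, 2 and 3 of 17 dpp. The 364 became 153, 133, 234, 227 and 237 without mutant replicates 1 to 5, and 163, 129 and 95 without wild-type replicates 1 to 3 of 14 dpp, and 161 without wild-type replicate 1 of 17 dpp. Without the set 3 arrays the count without the set term was 147.

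In both fits 5 genes met the rule. Tex30 (mean difference −0.61 ± 0.16, adjusted p = 0.0412), Rfx5, a subunit of the factor that drives MHC class II genes (−0.59 ± 0.15, adjusted p = 0.0449), and Kpna2, an importin α (−0.47 ± 0.12, adjusted p = 0.0305), were lower in mutants. Ssbp2, a single-stranded DNA-binding protein (0.62 ± 0.15, adjusted p = 0.0213), and the amino acid transporter Slc43a2 (0.50 ± 0.13, adjusted p = 0.0437) were higher. Rfx5 was the most even, with 869 to 1019 in wild type and 596 to 688 in mutants at 14 dpp and 719 to 1263 and 464 to 695 at 17 dpp, apart at both ages (interaction 0.008, 95% interval −0.64 to 0.65). These differences are smaller than the margin of 1. The interval of a gene that met the rule can therefore still hold a change as large as its difference, as that of Rfx5 did. With a margin of 0.5 the rule kept 0 genes without and 6 with the set term.

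Among the 364, the median difference was −0.32 at 14 dpp and −0.64 at 17 dpp for the 92 lower genes, and 0.27 and 0.65 for the 272 higher ones. Their median interactions were −0.36 and 0.38, so constant here means a change within the margin and not an unchanged difference. X-linked genes made up 53 of the higher ones, or 10.4% of X-linked genes against 1.78% of all genes. Only 5 of the 364 had a mean difference over 1 in size, and these are named after their values were seen.

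Of these, 1700102P08Rik had the largest difference. It gave 1596, 2377 and 1882 in wild type and 328, 293, 271, 288 and 243 in mutants at 14 dpp, and 6119, 6001, 4266, 2630 and 4121 in wild type and 822, 792, 433, 395 and 592 in mutants at 17 dpp. The genotypes were apart at both ages, by 6.80-fold and 7.62-fold. Signals were higher at 17 dpp in both genotypes, by 2.30-fold in wild type and 2.05-fold in mutants. The interaction was −0.35 ± 0.30 with the set term (95% interval −0.98 to 0.28) and −0.17 without, and the rule was not met in 11 of the 18 fits that left out 1 array.

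Rsph1, a radial spoke head protein, gave 4441, 6404 and 4364 in wild type and 1122, 1108, 591, 629 and 471 in mutants at 14 dpp. At 17 dpp the set 1 arrays gave 18271 in wild type and 2834 and 1781 in mutants, and the set 3 arrays gave 3186, 1487, 1276 and 2186 in wild type and 374, 227 and 306 in mutants. Within each set all mutant arrays were lower. With the set term the differences were −2.56 at 14 dpp and −2.78 at 17 dpp (95% interval of the interaction −0.998 to 0.56). The interval only just met the margin, and in 12 of the 18 fits that left out 1 array the rule was not met. Of 37 axoneme genes 1 (Rsph1) met the rule with the set term, near the share of all genes that did (2.38%).

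Rexo5, an RNA exonuclease, gave 3152, 4260 and 4480 in wild type and 2235, 2334, 1871, 1826 and 1599 in mutants at 14 dpp, and 5309, 10399, 10605, 13211 and 14058 against 2575, 2799, 3942, 5478 and 3979 at 17 dpp. Only at 17 dpp did the genotypes touch, through 1 mutant array, and the differences with the set term were −0.97 and −1.31. Urb2, a ribosome biogenesis factor, differed by −1.06 and −1.47. When 1 array was left out the rule was not met in 2 of the 18 fits for Rexo5 and in 7 for Urb2. The X-linked 1700013H16Rik was higher in mutants, by 0.96 and 1.26, and met the rule in each fit with the set term and 1 array left out. Its mean difference did not pass without the set term (adjusted p = 0.288).

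Of the 30 synaptonemal complex and recombination genes 5 met the rule with the set term, and 2.38% of all genes did. Meiob, a meiosis-specific single-stranded DNA-binding protein, gave 1694, 2095 and 1865 in wild type and 1426, 1219, 840, 511 and 583 in mutants at 14 dpp, and 1747, 2271, 3669, 2350 and 2003 against 1246, 1260, 828, 1011 and 1479 at 17 dpp. The genotypes were apart at both ages, by 2.22-fold and 2.04-fold, with differences of −0.96 and −1.01 with the set term, and the rule was not met in 2 of the 18 fits that left out 1 array. Sycp2 and Hormad1, parts of the chromosome axis, were also lower, and Dmc1, the meiotic recombinase, and Tex11 were higher. Sycp2 went from −0.24 to −0.68 and Tex11 from 0.17 to 0.61 with the set term, so these met the rule only because the margin exceeds their differences, and the interval of Sycp2 (−0.84 to −0.04) leaves out 0. No pachytene marker, spermatid gene, energy isoform or somatic marker met the rule with the set term.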

How the data were processed

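Log2 of MAS5 signal was analysed for whole testes of 4 groups. The authors deposited 1 signal intensity per probe set and array, from GCOS (per the series' design text) by MAS5 (per the submitters' processing notes, without a version). Arrays were not normalized further. Of 45101 probe sets, 64 controls were set aside, and 34764 exceeded the 40th percentile of the array in 3 or more arrays. Probe sets carrying 1 gene numbered 34945, several 932 and none 9160.

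Group means over the 18 arrays were fitted with limma 3.58.1 in R 4.3.3, with moderated variances and an intensity trend, two-sided, and Benjamini-Hochberg adjustment over all tested probe sets at 0.05. Each ± is a standard error. The second fit added array set, cut at β-actin ratios of 1.9 and 10. Separate means per group and set gave the values within set 1 and from sets 2 and 3, where a group with 1 array was assumed to vary like the others. The scripts were tested on simulated data. Array number limits precision. Gene names came from the platform annotation, and 15207 of 15307 genes matched RefSeq by Entrez ID.

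The members and the 23 lists (460 tested members) were chosen with earlier results of these data known. Named were Mybl1, the 15 lowest and 10 highest interactions called in both fits, up to 8 constant genes each way called in both, up to 4 members of each list, the 5 highest X-linked interactions and called genes whose difference narrowed. Others are said to be named after their values were seen. Alternatives covered scaling, background, filter, weights, margin, replicate block and each array left out.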

Additional observations from a re-analysis of the deposited data

Results flagged for a closer look

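Over 63 groups of 5 arrays looked at, 4 held an array far from the others on the log2 scale, where chance gives about 1 in 20 groups. Wild-type replicate 5 of 17 dpp stood high for Lin7a (11.96, the others 10.19 to 10.57) and for Cetn1 (12.51, the others 11.16 to 11.41). Wild-type replicate 1 of 17 dpp, the set 1 array of its group, stood low for Tex30 (13.4, the others 14.13 to 14.32). Mutant replicate 4 of 14 dpp stood low for Cfap299 (3.739, the others 5.234 to 5.829).

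For 15 genes the genotype difference changed with age by the test of the interaction itself, with the lowest values among those called in both fits. These were Ccdc7a (−6.324), Lin7a (−5.98), Gm7444 (−5.654), Cfap299 (−4.913), Ttc29 (−4.907), Nlrp14 (−4.405), 4933401H06Rik (−4.288), Hoxb5os (−4.26), Bex6 (−4.211), Ccdc30 (−4.062), Ttc6 (−3.89), Galnt3 (−3.851), Cetn1 (−3.811), Irak3 (−3.809) and C2cd6 (−3.746).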

How the results depend on the processing

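All 55 diverging genes had a negative interaction under each alternative that tested them, on arrays that had also chosen them. Of the 55, 55 passed with the array set block and with log2(signal + 50). On a common median 38 passed, after quantile normalization 35, with no intensity trend 36, and with the two-way model at 0.025 only 3. The count of called probe sets (71) moved widely. It was 416 with the array set block, 0 within set 1 and 0 from sets 2 and 3 in limma (1843 and 2179 at an unadjusted p under 0.05), 481 without the set 3 arrays, 273 with log2(signal + 50), 301 with signal raised to the 40th percentile, 395 with quantile normalization and the array set block, and 734 with log2(signal + 50) and that block. It was 43 with only probe sets above the 40th percentile on all arrays, 413 with array weights (333 lower, 80 higher) and 4 with the two-way model of the series' text at 0.025. The replicate block gave 39, and 378 with the array set block too, with 29 and 54 of the 55 genes called. Deviations of same-numbered arrays correlated at 0.283, 0.355 and 0.385 at 14 dpp and at 0.777, −0.227, 0.226, 0.385 and 0.207 at 17 dpp. The negative pair, replicate 2, lies in different array sets. Of the 8 pairs, 7 exceeded 0.1, and each of these lies within 1 array set, so pairing and array set cannot be told apart. The numbers were not treated as pairs in the main fits, and 6 of 16 arrays correlated best with their own number. Leaving out 1 array gave 0 to 133, and with the array set block (chosen after seeing the data) 79 to 925. The cause of these moves was not tested.

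The count of constant genes (6) was 364 with the array set block, 12 from sets 2 and 3, 147 without the set 3 arrays, 2 on a common median, 24 after quantile normalization (686 with the block), 14 with log2(signal + 50) (521 with the block), 1 with no filter, 14 above the 40th percentile on all arrays, 226 with array weights, 41 with the two-way model, 3 with the replicate block (296 with both blocks), 0 with a margin of 0.5 and 85 with a margin of 1.5 (951 with the block, added after seeing the data). Without 1 array it ran from 0 to 13, and with the block from 95 to 477. Direction turned for Tsga8 (−1.25 within set 1, −1.01 without set 3), Mybl1 (0.42 without set 3) and Ttll1 (0.14 for the mean of probe sets). Quantile normalization lowered the median interaction of all probe sets from 0.16 to 0.07.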
